A study of Mus musculus with 12 samples.

Results

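The 40 genes described here are interferon response genes, chosen by symbol as genes that interferons induce or that carry the interferon signal. The rule that picks them uses their names and no measured value, but the list was drawn up with earlier results of these data known. They were measured by stranded mRNA sequencing of splenic CD4 T cells from mice of the strain C57BL/6. TFH cells (T follicular helper, CD4+CXCR5+PD-1+) and non-TFH cells (CD4+CXCR5-PD-1-) came from mice with floxed Ets1 alleles that carried CD4-cre (labelled Ets1-CD4-cKO, cKO here) or lacked it (Ets1 fl/fl, WT here), which gave 4 groups of 3 libraries: cKO TFH, WT TFH, cKO non-TFH and WT non-TFH. CD4-cre acts from the CD4-expressing stage of thymocyte development, so the floxed segment is a target in both sorted populations and in CD8 T cells. The labels give neither age nor sex, and do not say that replicates came from separate mice, so the spread behind each p-value is that between samples and may be technical in part. Values are FPKM, fragments normalised to transcript length and library depth, scaled between libraries. Of the 40 genes, 33 had entries of their own and 7 were measured together with neighbouring genes in 6 joint features, which gave 39 features among 23247 in all. All 39 passed the filter of at least 1 FPKM in at least 3 libraries, as did 11113 features of the series.

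Type I interferons signal through the receptor chains IFNAR1 and IFNAR2 and the kinases JAK1 and TYK2 to a complex that holds STAT2 and IRF9. This complex binds the interferon-stimulated response element (ISRE) in target promoters. Interferon gamma signals through IFNGR1 and IFNGR2, JAK1 and JAK2 to factors that bind the gamma-activated sequence (GAS), and it induces Irf1 and the immunity GTPases. In mouse CD4 T cells type I interferon is known to induce Bcl6, CXCR5 and PD-1. ETS1 belongs to a family of transcription factors that bind sequences around GGAA, a core that also lies in composite ETS-IRF elements.

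The libraries held an estimated 11.9 to 15.5 M fragments. Ets1 itself read 223, 270 and 265 FPKM in cKO TFH cells, against 170, 203 and 214 FPKM in WT TFH cells, and 413, 408 and 379 FPKM in cKO non-TFH cells, against 410, 410 and 401 FPKM in WT non-TFH cells. The deposited value covers the whole gene, so that it does not check the deletion of a floxed segment, and the genotypes below rest on the labels. Cxcr5 and Pdcd1, the sorted markers, were at 125 to 157 and 601 to 704 FPKM in cKO TFH cells, at 154 to 252 and 316 to 379 FPKM in WT TFH cells and at 0 to 12.2 and 1.39 to 1.64 FPKM in the 6 non-TFH libraries. The 4 Y-linked genes measured were at 0 in all 3 cKO TFH libraries, while Ddx3y read 33.4, 2.21 and 5.26 FPKM in the WT TFH libraries and 40.3 to 68.0 FPKM in the non-TFH libraries with a value. X-linked Xist read 23.3, 16.6 and 14.8 FPKM in cKO TFH and 0, 15.9 and 13.6 FPKM in WT TFH libraries. It read 19.6, 0.324 and 0.0826 FPKM in cKO non-TFH libraries, and 1.8 and 0.163 FPKM in WT non-TFH libraries 2 and 3. The makeup by sex therefore differed between groups, and Xist also varied within WT TFH and cKO non-TFH cells. In both of these groups library 1 stood apart in Xist from libraries 2 and 3, so it was not a technical copy of them. The part of sex in the results was not tested.

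Promoters from RefSeq (GRCm38.p6, the assembly that mm10 names), windows of 300 bases that end shortly after a transcript's start, were searched on both strands for the ISRE core GAAANNGAA. It was found in 17 of the 30 members in the promoter table (56.7%), against 9.8% of all 27025 genes in it. The GAS motif TTCNNNGAA was found in 9 of 30 members (30.0%), against 9.6% of all genes. The composite ETS-IRF motif GGAANNGAA, which shares the letters AANNGAA with the ISRE core, was found in 5 of 30 (16.7% against 9.4%). The ETS motif CCGGAAGT was found in 2 of 30 (6.7% against 4.3%), Ifih1 and Ifit2. Such matches describe letters in a window and are not shown to be bound sites. The 7 promoters printed belong to members on which the results below turn. Irgm1, Gbp3, Ifih1 and Stat2 were lower in cKO than in WT TFH cells, Isg15, Rsad2 and Stat2 were higher in cKO than in WT non-TFH cells, and Oasl2 was higher in cKO cells of both kinds. Capitals mark ISRE core matches on either strand, and Oasl2 has none in this window. Oasl1, Samhd1, Isg20 and Cmpk2, also higher in cKO non-TFH cells, have none in their windows and are not printed.
Irgm1, chr11:48871371-48871670, minus strand: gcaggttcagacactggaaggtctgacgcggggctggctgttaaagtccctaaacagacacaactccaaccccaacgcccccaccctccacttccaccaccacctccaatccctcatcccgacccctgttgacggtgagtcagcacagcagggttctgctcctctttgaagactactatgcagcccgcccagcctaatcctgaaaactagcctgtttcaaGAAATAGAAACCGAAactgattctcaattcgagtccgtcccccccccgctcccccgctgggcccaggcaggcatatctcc
Gbp3, chr3:142559794-142560093, plus strand: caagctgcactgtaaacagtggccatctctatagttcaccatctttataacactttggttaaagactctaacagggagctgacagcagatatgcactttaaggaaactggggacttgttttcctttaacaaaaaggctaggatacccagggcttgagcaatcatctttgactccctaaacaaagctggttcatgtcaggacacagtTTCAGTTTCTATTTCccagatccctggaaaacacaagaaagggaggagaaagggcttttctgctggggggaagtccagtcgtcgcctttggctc
Ifih1, chr2:62646206-62646505, minus strand: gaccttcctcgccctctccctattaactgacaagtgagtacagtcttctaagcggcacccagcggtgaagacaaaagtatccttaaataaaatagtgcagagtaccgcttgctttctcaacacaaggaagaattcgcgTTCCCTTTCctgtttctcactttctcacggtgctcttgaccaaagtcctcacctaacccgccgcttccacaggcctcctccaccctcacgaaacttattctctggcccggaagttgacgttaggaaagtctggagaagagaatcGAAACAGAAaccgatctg
Stat2, chr10:128270248-128270547, plus strand: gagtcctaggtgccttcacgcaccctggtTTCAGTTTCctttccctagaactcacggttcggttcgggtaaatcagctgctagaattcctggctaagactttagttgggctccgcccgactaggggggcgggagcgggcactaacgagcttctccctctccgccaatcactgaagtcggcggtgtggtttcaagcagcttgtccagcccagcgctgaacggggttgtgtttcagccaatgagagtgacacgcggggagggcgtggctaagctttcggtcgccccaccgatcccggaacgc
Isg15, chr4:156200769-156201068, minus strand: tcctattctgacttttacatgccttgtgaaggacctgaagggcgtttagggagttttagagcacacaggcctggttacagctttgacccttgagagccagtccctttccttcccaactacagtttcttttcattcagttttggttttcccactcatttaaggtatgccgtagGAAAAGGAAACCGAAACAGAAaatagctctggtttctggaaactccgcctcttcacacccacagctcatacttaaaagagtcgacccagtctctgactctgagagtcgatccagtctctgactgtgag
Rsad2, chr12:26456403-26456702, minus strand: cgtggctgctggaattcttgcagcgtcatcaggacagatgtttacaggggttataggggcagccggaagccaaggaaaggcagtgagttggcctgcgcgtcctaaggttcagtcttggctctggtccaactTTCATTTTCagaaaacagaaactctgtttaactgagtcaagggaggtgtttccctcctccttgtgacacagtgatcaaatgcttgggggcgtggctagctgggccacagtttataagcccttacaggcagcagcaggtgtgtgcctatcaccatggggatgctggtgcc
Oasl2, chr5:114896684-114896983, plus strand: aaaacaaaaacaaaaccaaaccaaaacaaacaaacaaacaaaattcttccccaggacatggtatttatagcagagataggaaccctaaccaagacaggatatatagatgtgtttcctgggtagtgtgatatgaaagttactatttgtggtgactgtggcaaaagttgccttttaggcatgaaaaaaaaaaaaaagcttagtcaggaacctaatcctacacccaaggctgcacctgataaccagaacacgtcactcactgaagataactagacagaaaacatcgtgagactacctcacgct
The promoter of Isg15 holds 3 matches in a row, with first bases 78, 72 and 66 bases before the start. Irgm1 has 2 adjacent matches at 30 and 24 bases before the start, and Gbp3 has 2 at 44 and 38 bases before it. A further window of Gbp3, chr3:142560106-142560405, has 0 matches. Of the 12 members in the table that were lower in cKO TFH cells, 8 had an ISRE core match, and so did 9 of the 16 members not called there. Of the 8 members in the table that were higher in cKO non-TFH cells, 3 had one (Stat2, Rsad2 and Isg15), and so did 14 of the 22 members not called there.

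**Figure D1:**
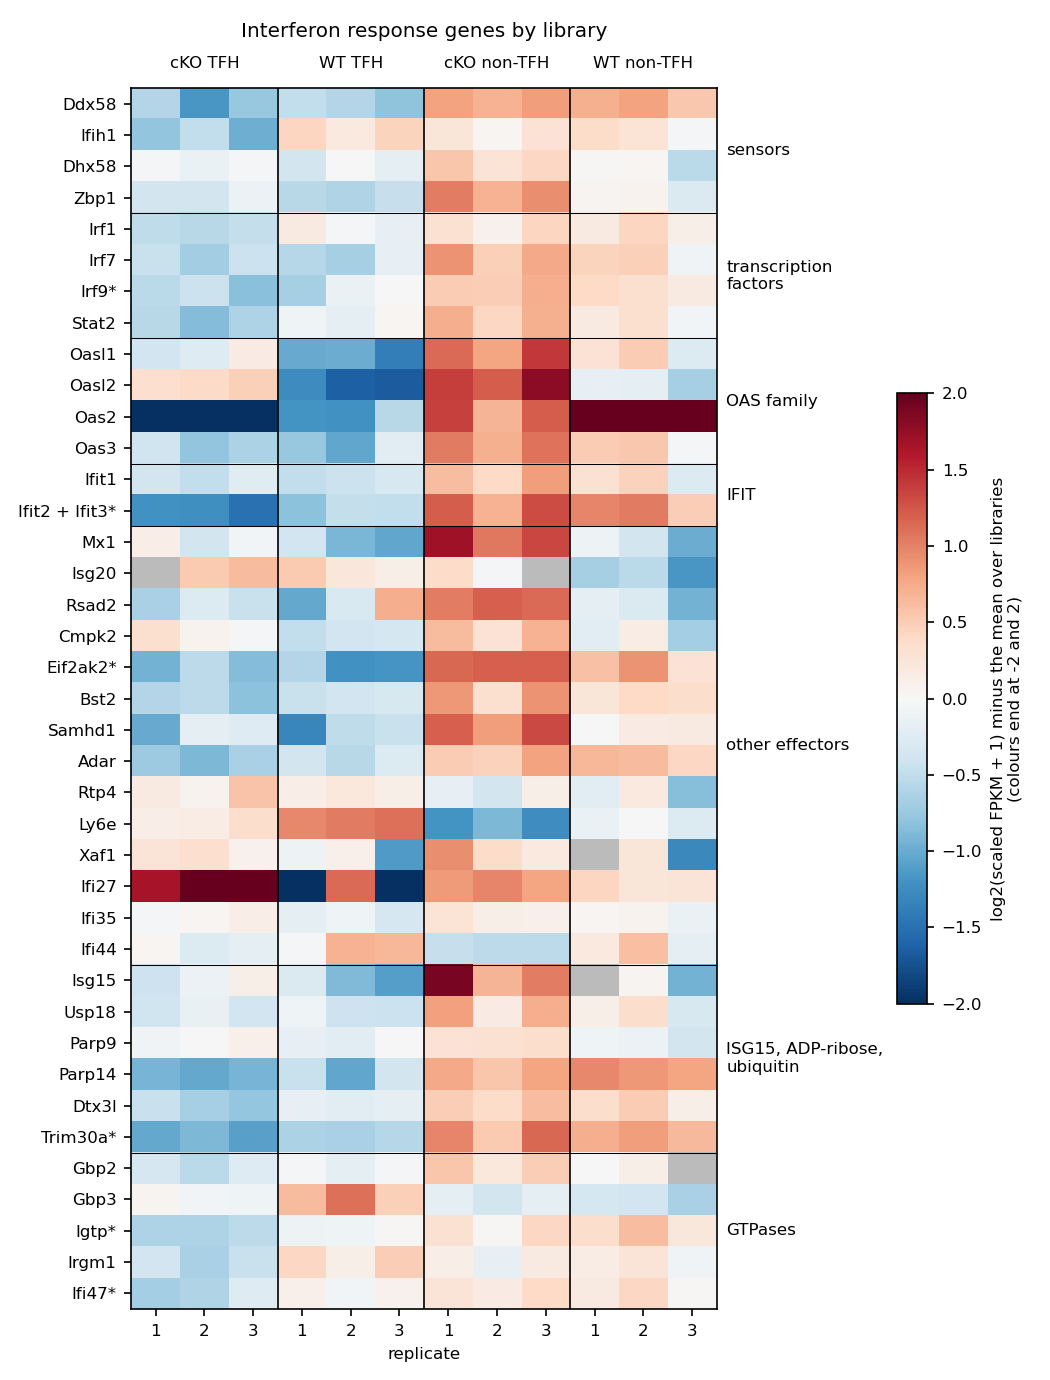
Level of the 39 features of interferon response genes (rows, by role) in the 12 libraries (columns, cKO left of WT in each cell type), as log2(scaled FPKM + 1) minus the feature's mean over libraries. Grey cells have no value and asterisks mark joint features. The TFH libraries are lower than the non-TFH libraries in most rows, Oas2 is highest in WT non-TFH cells, and the GTPases at the bottom are lower in cKO than in WT TFH cells.

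The cKO TFH cells had lower levels of 4 of the 5 interferon-inducible GTPase features, of Stat2 and Irf1, of the RNA sensor Ifih1 and of Ly6e and Oas2, and higher levels of Oasl1 and Oasl2. Of the 39 features, 13 were lower and 3 higher in cKO than in WT TFH cells (limma, Benjamini-Hochberg adjusted p under 0.05). That is 41.0% called, against a background of 30.9% of all tested features (15.1% lower and 15.8% higher). The median log2 change of the members was -0.21, beside 0.04 over all tested features. The libraries of cKO and WT TFH cells did not overlap for 15 features that were lower and 8 that were higher in cKO, 59.0% of the members, where 38.0% of all tested features did not overlap (17.9% lower and 20.2% higher). With array weights, which lower the weight of noisier libraries, the count called lower was 5 in place of 13, and without WT non-TFH library 3, which enters through the shared spread, the count called higher was 5. In whole populations of sorted cells, fewer cells that express a gene and less RNA per cell cannot be told apart.

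The immunity GTPases act on intracellular pathogens and their vacuoles. All 5 GTPase features had lower values in every cKO TFH library than in any WT TFH library, and 4 were called. Irgm1 (chr11:48865249-48871410), which regulates autophagy and protects lymphocytes in mouse, read 53.6, 44.5 and 51.8 FPKM in cKO TFH cells, against 94.0, 76.2 and 100 FPKM in WT TFH cells. Its log2 change was -0.83 ± 0.14 (SE, adjusted p = 0.00081 by limma). Gbp3 (chr3:142560052-142573212), a guanylate-binding protein, read 11.4, 10.5 and 10.2 FPKM in cKO, against 17.6, 24.5 and 15.6 FPKM in WT TFH cells. The highest WT value of Gbp3 was that of library 2, and the change was -0.77 ± 0.16 (adjusted p = 0.0041 by limma). Igtp (also called Irgm3), measured with Irgm2 and Gm12250, read 79.2, 78.5 and 84.3 FPKM in cKO, against 113, 114 and 124 FPKM in WT TFH cells, a change of -0.53 ± 0.12. Ifi47, measured with Olfr56, read 93.3, 98.3 and 125 FPKM in cKO, against 161, 144 and 160 FPKM in WT TFH cells, a change of -0.56 ± 0.13. These values differ by more than the spread within either group. Gbp2 read 30.0, 26.1 and 32.0 FPKM in cKO, against 37.4, 33.5 and 37.8 FPKM in WT TFH cells, and did not pass the test (-0.30 ± 0.12, adjusted p = 0.0856 by limma).

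Among the transcription factors, Irf1 and Stat2 fell and Irf7 and Irf9 did not pass the test. Irf1, a factor that interferon gamma induces, read 84.3, 81.6 and 86.6 FPKM in cKO, against 136, 119 and 108 FPKM in WT TFH cells (-0.51 ± 0.12). Stat2 (chr10:128270576-128292849), the partner of IRF9, read 15.0, 11.8 and 14.3 FPKM in cKO, against 21.2, 19.5 and 23.0 FPKM in WT TFH cells (-0.60 ± 0.14). Every cKO library was below every WT library for both. Irf7, the factor that amplifies type I interferon production, averaged 46.1 ± 4.72 FPKM in cKO and 48.6 ± 9.51 FPKM in WT TFH cells (SD, n = 3 each), and Irf9, measured with Rnf31, averaged 55.5 ± 7.85 FPKM in cKO and 71.5 ± 16.3 FPKM in WT TFH cells, with groups that overlapped.

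The sensors split. Ifih1 (chr2:62595793-62646255), which encodes MDA5, a cytosolic sensor of long double-stranded RNA, read 6.00, 7.62 and 5.18 FPKM in cKO TFH cells, against 15.3, 12.9 and 15.5 FPKM in WT TFH cells. The groups lie far apart beside their spread, and the change of -1.11 ± 0.16 had an adjusted p of 0.00036 by limma. Ddx58 (RIG-I), the sensor of short RNA with a triphosphate end, and Dhx58 (LGP2), a regulator of both, did not pass the test and averaged 14.8 ± 3.19 and 16.9 ± 0.70 FPKM in cKO, against 17.1 ± 1.91 and 15.7 ± 2.18 FPKM in WT TFH cells. Zbp1, a sensor of Z-form nucleic acid, read 82.6, 82.6 and 98.8 FPKM in cKO, against 72.6, 70.3 and 77.7 FPKM in WT TFH cells. Its groups did not overlap, but the change of 0.25 ± 0.12 did not pass the test (adjusted p = 0.14 by limma).

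The 2-5A synthetase family, whose active enzymes make the activator of RNase L, moved both ways. Oasl2 (chr5:114896934-114912245) read 20.0, 20.7 and 22.2 FPKM in cKO TFH cells, against 5.98, 4.42 and 4.28 FPKM in WT TFH cells. This was the clearest rise among the members in TFH cells, 1.91 ± 0.18 on the log2(FPKM + 1) scale, with an adjusted p of 1.9e-05 by limma. Its neighbour Oasl1 (chr5:114923240-114937911), known in mouse to restrain Irf7 translation, read 5.52, 6.10 and 8.53 FPKM in cKO, against 3.23, 3.25 and 2.24 FPKM in WT TFH cells, a change of 0.97 ± 0.24. Oas2 (chr5:120730333-120749848) read 0, 0.244 and 0.191 FPKM in cKO, against 2.05, 2.04 and 3.77 FPKM in WT TFH cells. Oas2 was thus near 0 in cKO TFH cells, and its change was -1.63 ± 0.26 (adjusted p = 0.00057 by limma). The gene beside it, Oas3 (chr5:120753098-120777659), averaged 7.18 ± 1.13 FPKM in cKO and 7.01 ± 2.38 FPKM in WT TFH cells and did not pass the test.

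Of the IFIT features, Ifit2 and Ifit3, measured together with Ifit3b, read 19.0, 18.8 and 15.5 FPKM in cKO, against 25.2, 32.4 and 32.0 FPKM in WT TFH cells, a change of -0.71 ± 0.19 that was not called without cKO TFH library 3 (-0.63, adjusted p = 0.054 by limma). IFIT proteins bind foreign RNA and block its translation. In the 6 TFH libraries Ifit2 also had entries of its own, with 6.75, 5.13 and 4.25 FPKM in cKO and 10.4, 12.4 and 11.8 FPKM in WT TFH cells. Such entries in non-TFH cells read 12.6, 11.1 and 12.7 FPKM in cKO and 31.2 FPKM in WT library 1, the only WT non-TFH library with one. Ifit1 averaged 19.0 ± 1.69 FPKM in cKO and 18.4 ± 1.17 FPKM in WT TFH cells and did not pass the test.

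Ly6e (chr15:74955051-74959905), a glycolipid-anchored surface protein that alters entry of several viruses, had the highest mean over the 4 groups of all members, although it averaged less than Trim30a and Samhd1 in cKO non-TFH cells. It read 527, 533 and 611 FPKM in cKO TFH cells, against 940, 990 and 1035 FPKM in WT TFH cells, and fell by 0.83 ± 0.11 on the log2 scale (adjusted p = 0.00013 by limma). The libraries of each group lie close together and the groups are well apart. Adar, the adenosine deaminase that edits double-stranded RNA, read 22.8, 20.3 and 24.1 FPKM in cKO, against 29.5, 25.9 and 31.6 FPKM in WT TFH cells (-0.36 ± 0.12). Dtx3l, a ubiquitin ligase, read 21.8, 18.6 and 17.2 FPKM in cKO, against 26.7, 26.0 and 26.5 FPKM in WT TFH cells (-0.45 ± 0.12), a call lost without cKO TFH library 3 (adjusted p = 0.064 by limma). The annotated spans of Dtx3l and its partner Parp9 overlap, and whether fragments were assigned by strand is not given in the sources used here. Trim30a, a regulator of innate signalling measured in a joint feature of 6 Trim genes and pseudogenes, read 95.4, 104 and 91.2 FPKM in cKO, against 125, 124 and 130 FPKM in WT TFH cells (-0.38 ± 0.13). When the rows that list Trim30a were summed in place of the joint feature, the change had the opposite sign, 0.176. The calls of Adar and Trim30a were the least stable, lost in 15 and 14 of 21 other settings. Ifi27 was listed at 144, 216 and 261 FPKM in cKO, against 0, 101 and 0 FPKM in WT TFH cells. Its span lies within that of a joint feature of Ddx24, Ifi27l2a and Ifi27l2b, its call rests on the libraries listed at 0, and no fold is given. Mx1 read 14, 9.60 and 12.2 FPKM in cKO, against 9.49, 6.25 and 5.62 FPKM in WT TFH cells. Every cKO value was above every WT value, and the change of 0.69 ± 0.26 did not pass the test (adjusted p = 0.0645 by limma). Samhd1, among the 3 members with the highest mean, read 72.7, 131 and 123 FPKM in cKO, against 59.5, 104 and 108 FPKM in WT TFH cells, with groups that overlapped. Altogether 14 of the 39 features were called in neither cell type between genotypes.

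**Figure D2:**
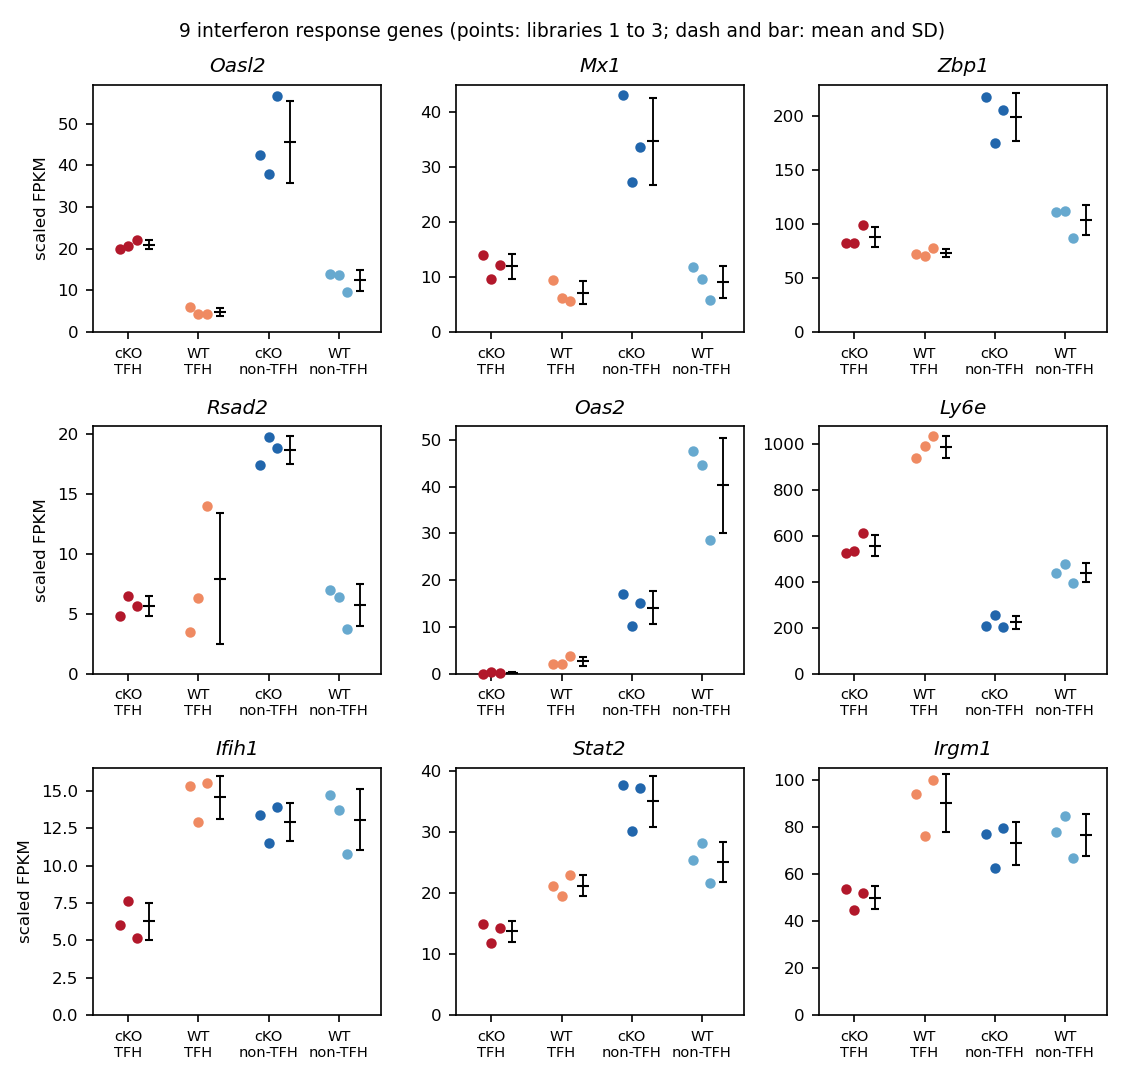
Scaled FPKM (vertical axis, from 0) of 9 interferon response genes in each library (points, replicates 1 to 3 from left to right), with the mean and SD beside them. Oasl2 is higher in cKO than in WT cells of both kinds, Oas2 and Ly6e are lower in both, Ifih1 and Irgm1 differ in TFH cells, and Mx1, Zbp1 and Rsad2 differ in non-TFH cells.

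Markers of other cells moved with this comparison, and so did the number of unnamed loci in the tables, 7855 to 10233 in cKO TFH libraries and 12338 to 25171 in WT TFH libraries. Of 15 macrophage and monocyte features tested, 12 were lower and 1 was higher in cKO than in WT TFH cells. The summed level of the 15 such genes with entries of their own was 243 to 327 FPKM in cKO TFH libraries, against 1313 to 2434 FPKM in WT TFH libraries, with no marker at 0 in every library of either group. Csf1r, C1qa and Adgre1, defining genes of the list, read 17.0 to 20.9, 21.5 to 27.6 and 3.75 to 8.39 FPKM in cKO, against 133 to 187, 102 to 155 and 31.0 to 54.8 FPKM in WT TFH cells. WT TFH library 2 had the highest such sum, and without it 13 members were called lower. The other WT TFH libraries, at 1313 and 1373 FPKM, still stood above all cKO TFH libraries, so that this setting keeps the difference in markers. B-cell markers summed to 39.2 to 47.7 FPKM in cKO and 74.9 to 80.2 FPKM in WT TFH libraries, with 4 of 8 tested lower and none higher. Markers of plasmacytoid dendritic cells, which produce type I interferon, summed to 48.6 to 88.1 FPKM in cKO and 42.1 to 69.6 FPKM in WT TFH libraries, with 3 of 7 tested higher and 3 lower. Siglech, their defining gene, read 4.08, 7.19 and 3.78 FPKM in cKO and 11.5, 12.6 and 21.0 FPKM in WT TFH cells. The part of such cells and of the unnamed loci in the changes above was not tested.

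In non-TFH cells most of the members called were higher in cKO. Of 39 features, 12 were higher and 2 lower in cKO than in WT non-TFH cells, 35.9% called against a background of 20.4% of all tested features (11.8% higher and 8.58% lower). Oasl2, Mx1, Rsad2 and Isg15 had the largest rises among them. The median log2 change of the members was 0.36, beside 0.03 over all tested features, and 32 of 39 had a positive change. Groups did not overlap for 18 higher and 3 lower features, 53.8% of the members, where 52.2% of all tested features did not overlap (29.0% higher and 23.2% lower), so that this share is near the background. The number called higher was 6 without cKO non-TFH library 1, and 7 without cKO non-TFH library 3 or WT non-TFH library 3.

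Oasl2 had the smallest adjusted p of the rises, with 42.4, 37.9 and 56.8 FPKM in cKO non-TFH cells, against 13.9, 13.8 and 9.54 FPKM in WT non-TFH cells (1.80 ± 0.18, adjusted p = 2.8e-05 by limma). Oasl1 read 17.6, 13.7 and 21.7 FPKM in cKO, against 9.39, 11.1 and 6.02 FPKM in WT non-TFH cells (0.94 ± 0.24). Both rose in TFH cells as well. Oas2 went the other way, with 17.0, 10.2 and 15.2 FPKM in cKO, against 47.6, 44.6 and 28.6 FPKM in WT non-TFH cells (-1.44 ± 0.26, adjusted p = 0.0017 by limma). Ly6e read 209, 257 and 202 FPKM in cKO, against 439, 479 and 396 FPKM in WT non-TFH cells (-0.98 ± 0.11, adjusted p = 4e-05 by limma). For both genes the lowest WT library was above the highest cKO library.

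Mx1 (chr16:97447035-97462906), a gene of the dynamin-like GTPase family, read 43.1, 27.3 and 33.6 FPKM in cKO non-TFH cells, against 11.8, 9.60 and 5.91 FPKM in WT non-TFH cells. The lowest cKO value lay well above the highest WT value, and the change was 1.84 ± 0.26 (adjusted p = 0.00031 by limma). Rsad2 (chr12:26442743-26456452), which encodes viperin, read 17.4, 19.7 and 18.8 FPKM in cKO, against 7.01, 6.35 and 3.69 FPKM in WT non-TFH cells (1.59 ± 0.36). Its neighbour Cmpk2 (chr12:26469215-26479837), a mitochondrial nucleotide kinase, read 14.8, 11.5 and 15.5 FPKM in cKO, against 7.70, 10.3 and 5.37 FPKM in WT non-TFH cells (0.79 ± 0.20). Both genes of this pair were higher in all cKO libraries than in any WT library. Isg15, the ubiquitin-like protein, read 228, 96.9 and 123 FPKM in cKO, against 62.3 and 30.8 FPKM in the WT non-TFH libraries 2 and 3 with a value (1.65 ± 0.41, adjusted p = 0.019 by limma). Isg20, an exonuclease of RNA, read 48.1 and 36.2 FPKM in cKO libraries 1 and 2, against 23.1, 25.4 and 16 FPKM in WT non-TFH cells (0.95 ± 0.21). The fit leaves out the libraries with no value for these genes.

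Samhd1, a triphosphohydrolase that lowers the dNTP pool, read 341, 265 and 371 FPKM in cKO non-TFH cells, against 148, 166 and 168 FPKM in WT non-TFH cells (1.0 ± 0.26). Zbp1 read 218, 175 and 206 FPKM in cKO, against 111, 112 and 87.6 FPKM in WT non-TFH cells (0.94 ± 0.12, adjusted p = 0.00015 by limma). Both groups of each gene are well separated. Parp9, a mono-ADP-ribosyltransferase partner of Dtx3l, read 49.5, 50.3 and 51.7 FPKM in cKO, against 37.9, 37.2 and 31.0 FPKM in WT non-TFH cells (0.51 ± 0.10), and the groups lie apart. Dhx58 read 26.6, 21.6 and 23.9 FPKM in cKO, against 18.1, 18.3 and 11.9 FPKM in WT non-TFH cells (0.57 ± 0.17). Stat2 read 37.7, 30.2 and 37.2 FPKM in cKO, against 25.5, 28.2 and 21.7 FPKM in WT non-TFH cells (0.46 ± 0.14). Stat2 was the one member called in both cell types in opposite directions. Its rise in non-TFH cells was not called without cKO non-TFH library 1 or 3 or WT non-TFH library 1 or 3 (0.37 to 0.48, adjusted p from 0.08 to 0.14 by limma). Dhx58, Oasl1 and Cmpk2 lost their calls without cKO library 1, cKO library 3 or WT library 3, Samhd1 without cKO library 1, cKO library 3 or WT library 1, Isg20 without cKO library 1 and Isg15 without WT library 3, with adjusted p from 0.051 to 0.15 by limma. None of the 5 GTPase features passed the test in non-TFH cells (limma, 1 with an unadjusted p under 0.05). Irgm1 read 77.1, 62.7 and 79.7 FPKM in cKO, against 78.0, 84.6 and 67 FPKM in WT non-TFH cells. Gbp3 read 9.46, 8.31 and 9.53 FPKM in cKO, against 8.37, 8.20 and 6.58 FPKM in WT non-TFH cells. Ifih1, the sensor lower in cKO TFH cells, read 13.4, 11.5 and 13.9 FPKM in cKO, against 14.7, 13.7 and 10.8 FPKM in WT non-TFH cells. All 3 genes overlapped between the groups. Trim30a read 385, 280 and 430 FPKM in cKO and 321, 349 and 304 FPKM in WT non-TFH cells, with groups that overlapped.

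Macrophage markers were low in these cells, at 40.2 to 57.3 FPKM summed in cKO and 18.9 to 34.5 FPKM in WT non-TFH libraries, with 5 of 15 tested higher and none lower in cKO. Of 10 markers of NK and CD8 T cells, 4 were higher and 1 was lower in cKO, and the 8 with entries of their own summed to 162 to 196 FPKM in cKO and 25.9 to 32.6 FPKM in WT non-TFH libraries. The CD8 chain Cd8a was at 0.178 to 0.308 FPKM in cKO and 0.0441 to 0.171 FPKM in WT non-TFH cells, while Cd8b1 read 95.5 to 106 FPKM in cKO and 9.86 to 14.6 FPKM in WT. Siglech was at most 0.375 FPKM in any non-TFH library, and the plasmacytoid list summed to 110 to 118 FPKM in cKO and 17.7 to 27.2 FPKM in WT, mostly from Ccr9 in cKO (96.7 to 107 FPKM) and Pacsin1 in WT (16.5 to 26.4 FPKM). Neutrophil markers summed to 42.4 to 58.1 FPKM in cKO and 16.8 to 142 FPKM in WT non-TFH libraries, the highest in WT library 3. The part of such cells in the results was not tested.

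The change with Ets1 genotype differed between the cell types, always towards a lower change in TFH cells among the members called. The interaction, the log2 change of cKO against WT in TFH cells minus that in non-TFH cells, was called lower for 12 of 39 features and higher for 0 (limma, with 17 lower and 1 higher at an unadjusted p under 0.05). The background was 17.4% of all tested features, 10.6% lower and 6.87% higher. Of the 38 features other than Ifi27, 33 had a negative interaction, and the median over the 39 was -0.51, beside 0.01 over all tested features. Across those 38 the changes in TFH and in non-TFH cells were correlated all the same (Pearson r = 0.81). Rsad2 had the lowest interaction of the members, -1.84 ± 0.51 (adjusted p = 0.0267 by limma), with 4.78, 6.49 and 5.66 FPKM in cKO TFH cells and 3.44, 6.29 and 14 FPKM in WT TFH cells beside its rise in non-TFH cells. In limma, Stat2 (-1.06 ± 0.20, adjusted p = 0.0029), Ifih1 (-1.1 ± 0.23, adjusted p = 0.0062), Gbp3 and Irgm1 were called under all 21 other settings. Of the 5 GTPase features, 4 were called, Gbp3, Irgm1, Gbp2 and Ifi47, while 0 of the 4 features of the 2-5A synthetase family were (limma, 0 with an unadjusted p under 0.05). Gbp2 read 56.6, 44.5 and 54.1 FPKM in cKO non-TFH cells. In WT non-TFH cells it read 38.5 and 41.8 FPKM in libraries 1 and 2 and had no value in library 3. The interaction of Oasl2 was 0.11 ± 0.26, that of Oas2 was -0.19 ± 0.36 and that of Ly6e was 0.15 ± 0.15. For Oas2, near 0 in cKO TFH cells, the pseudocount of 1 understates the change there, so its interaction does not show an equal change. The ratio of mean FPKM of Oas2, cKO to WT, was 0.0553 in TFH and 0.351 in non-TFH cells. The interaction of the joint feature of Ifit2 and Ifit3 was -0.94 ± 0.27. When the rows that list Ifit2 were summed in its place, the interaction had the opposite sign (1.17, not called). The number called lower was 5 to 7 when cKO non-TFH library 3 (5), cKO non-TFH library 1 (6), WT non-TFH library 3 (6), cKO TFH library 2 (7) or cKO TFH library 3 (7) was left out, and 5 with array weights. Markers of other cells had called interactions as well. Of 15 macrophage and monocyte features tested, 13 were lower and 0 higher, with a median of -3.07. Of 10 NK and CD8 T cell features, 6 were lower and 1 was higher. The part of the other cells in the interaction of the members was not tested.

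**Figure D3:**
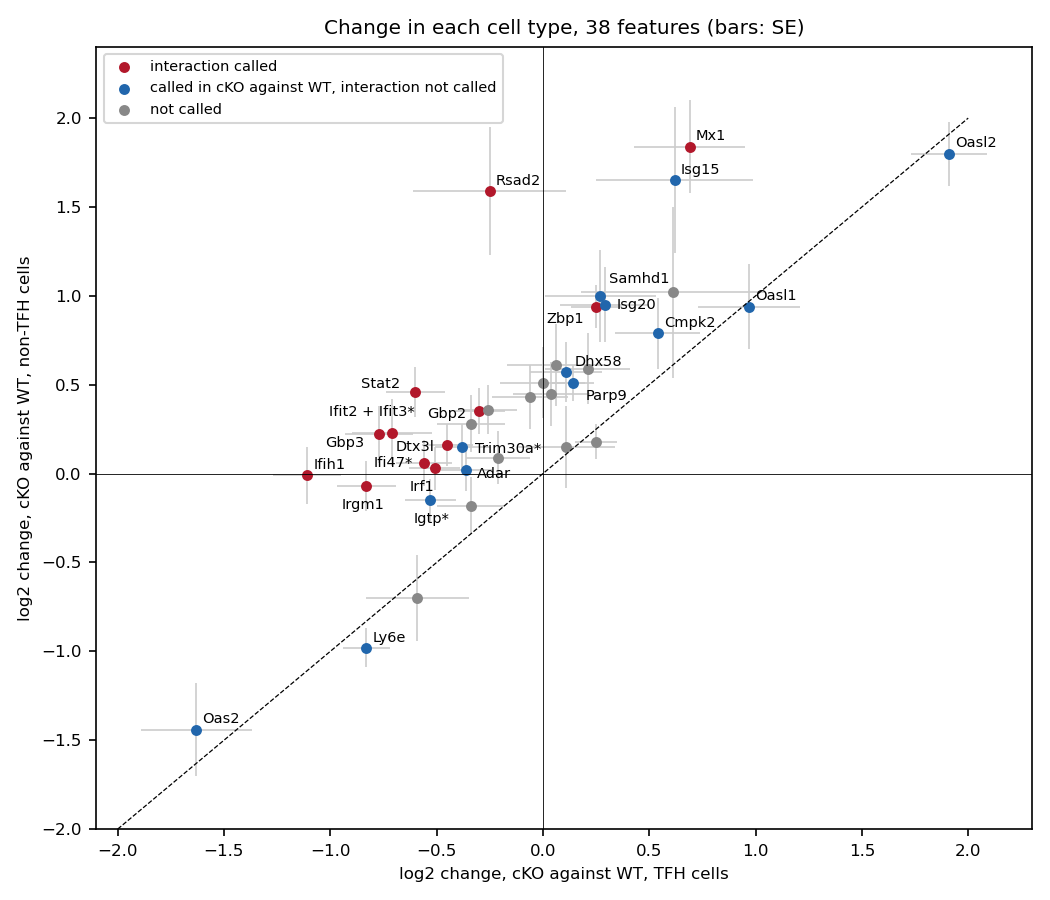
Log2 change of cKO against WT in TFH cells (horizontal axis) and in non-TFH cells (vertical axis) for 38 features of interferon response genes, with standard errors (Ifi27 is left out, joint features have an asterisk). The dashed line marks equal change. Of the 38 points, 33 lie above it, and Oasl2, Oasl1, Ly6e and Oas2 lie near it at both ends. The pseudocount of 1 understates the change of Oas2 in TFH cells, where its cKO values were near 0.

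Between the cell types of a genotype, most members were at a lower level in TFH cells, and more of them were called in cKO mice. In cKO mice 30 of 39 features were lower and 1 higher in TFH cells, 79.5% called against a background of 67.2% (33.6% lower and 33.6% higher), with a median log2 change of -1.07 beside 0.02 over all tested features. In WT mice 18 were lower and 3 higher, 53.8% called against a background of 67.6% (32.3% lower and 35.4% higher), with a median of -0.36 beside 0.05. The cell types did not overlap for 30 members lower and 5 higher in TFH cells of cKO mice (89.7%, where 36.9% of all tested features were lower, 36.9% higher and 73.8% either without overlap). In WT mice they did not overlap for 19 lower and 3 higher (56.4%, where 34.8% of all were lower, 37.2% higher and 72.0% either). The median of all tested features moved to 0.26 in cKO and 0.36 in WT mice without scaling between libraries, and on that scale 7 members were called higher and 11 lower in WT mice. In cKO mice, 2 members were called higher without WT TFH library 2 or WT non-TFH library 3, and 4 without scaling. Markers of other cells moved with the cell type as well. Of 15 macrophage and monocyte features tested, 9 were higher and 1 lower in TFH cells of cKO mice, and 13 were higher and 0 lower in TFH cells of WT mice (limma, by adjusted p). Their summed level was 243 to 327 FPKM in cKO TFH and 40.2 to 57.3 FPKM in cKO non-TFH libraries, and 1313 to 2434 FPKM in WT TFH and 18.9 to 34.5 FPKM in WT non-TFH libraries. Of 8 B-cell features tested, 7 were higher and 1 lower in TFH cells of each genotype. Their part in the results was not tested. These comparisons share their libraries with those of genotype, and the difference between them is the interaction given above.

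The feature of Ifit2 and Ifit3 read 19.0, 18.8 and 15.5 FPKM in cKO TFH cells, against 106, 73.7 and 113 FPKM in cKO non-TFH cells. Its log2 change of -2.37 ± 0.19 in cKO mice stood beside -1.43 ± 0.19 in WT mice, where WT non-TFH cells read 90.5, 94.0 and 64.2 FPKM. Oas2 had the lowest change of the members other than Ifi27, -3.70 ± 0.26 in cKO and -3.51 ± 0.26 in WT mice. As Oas2 was near 0 in cKO TFH cells, the pseudocount understates its change in cKO mice. Eif2ak2, which encodes the kinase PKR and was measured with Gm6548 and Sult6b1, averaged 9.35 ± 1.58 FPKM in cKO TFH and 38.9 ± 0.72 FPKM in cKO non-TFH cells (SD, n = 3 each), and 8.05 ± 2.32 FPKM in WT TFH and 26.0 ± 5.72 FPKM in WT non-TFH cells. Parp14, an ADP-ribosyltransferase, averaged 12 ± 0.546 FPKM in cKO TFH and 40.2 ± 3.70 FPKM in cKO non-TFH cells, and 15.8 ± 3.95 FPKM in WT TFH and 45.5 ± 2.80 FPKM in WT non-TFH cells. Each of these genes was called lower in TFH cells in both genotypes. Bst2, the tetherin that holds virions at the membrane, averaged 47.0 ± 4.96 FPKM in cKO TFH and 122 ± 25.8 FPKM in cKO non-TFH cells, and 56.3 ± 2.60 FPKM in WT TFH and 93.1 ± 5.27 FPKM in WT non-TFH cells. Usp18, the protease that removes ISG15 and restrains IFNAR2, was called in cKO mice (-0.88 ± 0.20) and not in WT mice (-0.36 ± 0.20, adjusted p = 0.131 by limma), and its interaction of -0.51 ± 0.29 did not pass the test.

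Ly6e was the exception in both genotypes, higher in TFH cells by 1.32 ± 0.11 in cKO and 1.17 ± 0.11 in WT mice. Gbp3 and Isg20 were higher in TFH cells of WT mice, by 1.20 ± 0.16 and 1.08 ± 0.19, and were not called in cKO mice (0.21 ± 0.16 and 0.42 ± 0.23). In cKO mice Isg20 had values only in TFH libraries 2 and 3 (53.9 and 58.3 FPKM) and non-TFH libraries 1 and 2 (48.1 and 36.2 FPKM). These did not overlap, and the comparison rests on fewer libraries than in WT mice. The interaction was called for Gbp3 and not for Isg20. Ifih1, Irgm1, Irf1, Stat2, Gbp2, Ifi47, Mx1, Isg15, Rsad2, Usp18, Dhx58 and Parp9 were called lower in TFH cells in cKO mice and not called in WT mice, and the interaction was called for the first 6, Mx1 and Rsad2. Xaf1, Rtp4, Ifi35 and Ifi44 were called in no comparison. Xaf1, an inhibitor of XIAP, ranged from 15.2 to 73.8 FPKM over the libraries, Rtp4 from 20.8 to 57.1 FPKM and Ifi35 from 46.4 to 71.6 FPKM, and Ifi44, with the lowest mean over the 4 groups, from 1.10 to 3.88 FPKM.

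**Figure D4:**
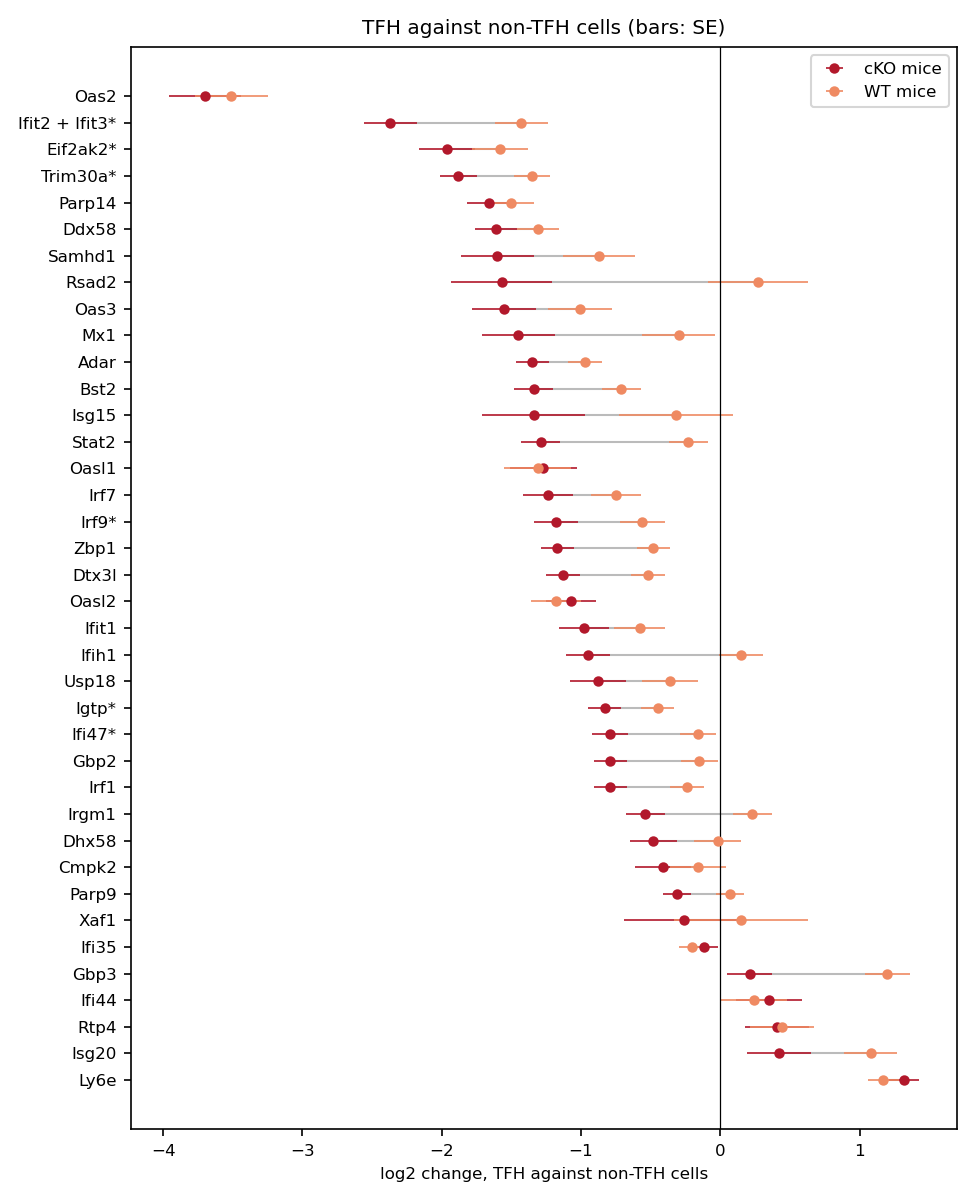
Log2 change of TFH against non-TFH cells for 38 features of interferon response genes (rows) in cKO mice (dark red) and WT mice (orange), with standard errors. A grey line joins the values of a feature. The values in cKO mice lie left of those in WT mice in 33 of 38 rows, and Ly6e is above 1 in both.

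The members varied together among libraries of one group in non-TFH cells and not in TFH cells. Over the 34 features with a value in all libraries, the median correlation of deviations from the group mean was 0.77 across pairs of members in the 6 non-TFH libraries, beside 0.00 across pairs of all features, and 82.7% of member pairs were above 0.5, beside 19.7%. In the 6 TFH libraries the median was 0.02, and 20.3% of pairs were above 0.5, beside 20.0%. These figures describe few libraries that share depth and preparation. WT non-TFH library 3 was low, with a median deviation of -0.22 on the log2 scale and 2 of 34 members above the group mean, and cKO non-TFH library 2 was low as well, at -0.20 with 3 of 34. WT non-TFH library 2 was high, at 0.17 with 33 of 34. The median deviation of all tested features was within 0.01 of 0 in each library. The calls of members in non-TFH cells are therefore not independent of each other.

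**Figure D5:**
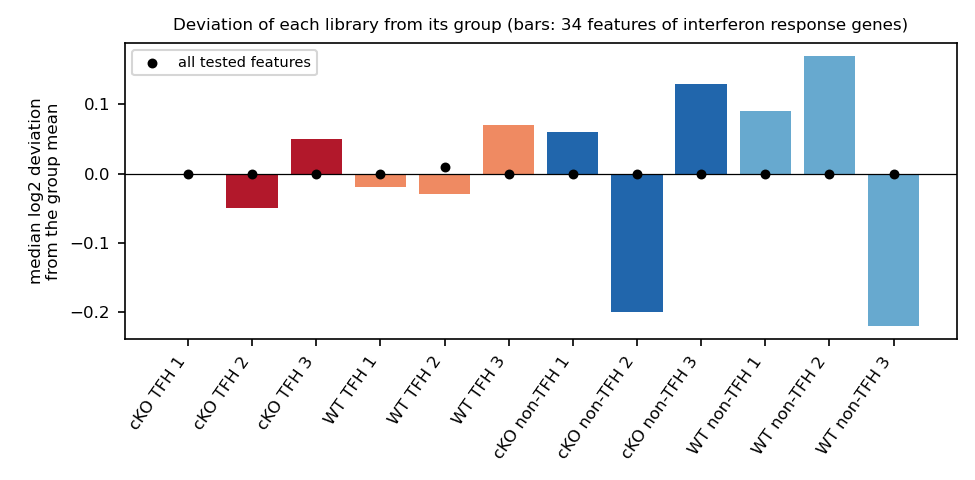
Median log2 deviation of 34 features of interferon response genes from their group mean in each library (bars), and of all tested features (black points). Deviations reach -0.22 in WT non-TFH library 3 and -0.20 in cKO non-TFH library 2, and stay between -0.05 and 0.07 in the TFH libraries.

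Upstream of the members, Ifng, the type II interferon, read 9.63, 11.8 and 9.89 FPKM in cKO TFH cells, against 65.9, 44.6 and 40.3 FPKM in WT TFH cells. It was lower in every cKO library, by -2.14 ± 0.29 on the log2 scale (adjusted p = 0.00024 by limma). In non-TFH cells Ifng was at 0.348 to 2.25 FPKM in cKO and 0.388 to 0.984 FPKM in WT and did not pass the test. Of 9 interferon genes listed, the other 8 were below the filter, with at most 0.697 FPKM in any library (Ifnk), and Ifnb1 was at 0 in 11 of 12 libraries.

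The counts of the lists that follow stand beside 15.1% of all tested features lower and 15.8% higher in cKO TFH cells, and 8.58% lower and 11.8% higher in cKO non-TFH cells. Of 15 receptor and signalling genes tested, 7 were lower and 1 was higher in cKO than in WT TFH cells, and 6 were higher and none lower in cKO than in WT non-TFH cells. Ifngr1, the ligand-binding chain of the interferon gamma receptor, changed in opposite directions, with 53.3, 35.6 and 43.2 FPKM in cKO against 62.3, 87.6 and 71.1 FPKM in WT TFH cells, and 84.3, 60.7 and 74.5 FPKM in cKO against 45.6, 46.9 and 45.6 FPKM in WT non-TFH cells. Its interaction of -1.38 ± 0.23 was called (adjusted p = 0.0018 by limma). Ifnar1 was higher in cKO non-TFH cells (0.92 ± 0.19) and not called in TFH cells (0.22 ± 0.19), whereas Ifnar2 was lower in cKO TFH cells (-0.70 ± 0.17, with no value in cKO library 3) and not called in non-TFH cells (0.23 ± 0.15). The interaction was called for Ifnar2 (-0.93 ± 0.23) and not for Ifnar1 (-0.70 ± 0.27). Jak1 was lower in cKO TFH cells (-0.31 ± 0.10) and not called in non-TFH cells (0.24 ± 0.10), with an interaction of -0.55 ± 0.13 that was called. Ifngr2 and Tyk2 were called in neither cell type. Among the other factors, Irf4, Irf5 and Irf8 fell in cKO TFH cells by 1.68 ± 0.21, 1.56 ± 0.27 and 0.74 ± 0.12 on the log2 scale, and Irf3 rose by 0.62 ± 0.10. Irf8 rose in cKO non-TFH cells by 0.73 ± 0.12, with 5.26 to 5.37 FPKM in cKO and 2.45 to 3.32 FPKM in WT. Irf5 and Irf8 are also expressed by macrophages and B cells, whose markers are given above, and that part was not tested.

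A list drawn up as negative regulators gave 12 tested features. It holds Isg20l2, whose role as a negative regulator is not shown here, and a joint feature of Atrip and Trex1. Of the 12 features, 3 were higher and 4 lower in cKO TFH cells, and 1 was higher and none lower in cKO non-TFH cells. In cKO non-TFH cells 11.8% of all tested features were higher. Socs1, the inhibitor of JAK kinases, read 41.7, 33.0 and 33.1 FPKM in cKO, against 8.21, 8.23 and 7.69 FPKM in WT non-TFH cells (2.02 ± 0.36, adjusted p = 0.0019 by limma). In TFH cells it read 8.72, 25.6 and 15.8 FPKM in cKO, against 3.17, 7.60 and 8.88 FPKM in WT, and was called (1.21 ± 0.36) although the groups overlapped. Socs3 fell in cKO TFH cells by 1.15 ± 0.20 on the log2 scale, and Ptpn6, the phosphatase SHP-1, by 0.61 ± 0.11. Of 13 nucleic acid sensing genes tested, 3 were lower and none higher in cKO TFH cells, Unc93b1, Tmem173 (STING) and Tlr7, and 3 were higher and 1 was lower in cKO non-TFH cells. Tmem173 read 58.8, 63.7 and 72.2 FPKM in cKO, against 148, 154 and 122 FPKM in WT TFH cells. Macrophage markers, given above, were also mostly lower in cKO TFH cells, and their part in these lists was not tested.

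A further 61 features of interferon-stimulated genes outside the members were tested. In cKO TFH cells 25 were lower and 4 higher, with a median change of -0.35, and in cKO non-TFH cells 13 were higher and 6 lower, with a median of 0.14. Ifitm3, a restriction factor of endosomal entry, read 20.0, 18.5 and 16.5 FPKM in cKO, against 60.0, 83.7 and 74.7 FPKM in WT TFH cells, and 20.6, 15.5 and 18 FPKM in cKO, against 5.48, 6.18 and 7.47 FPKM in WT non-TFH cells. It thus changed in opposite directions in the TFH (-1.92 ± 0.16) and non-TFH cells (1.37 ± 0.16). Macrophage and monocyte markers, given above, went the same ways. Of 15 tested, 12 were lower and 1 was higher in cKO TFH cells, and 5 were higher and none lower in cKO non-TFH cells. Whether such cells account for part of the changes in this paragraph was not tested. Pyhin1, of the HIN-200 family, read 22.7, 26.0 and 20.1 FPKM in cKO, against 164, 78.2 and 113 FPKM in WT TFH cells (-2.26 ± 0.21), and Iigp1, an immunity GTPase, read 8.05, 10.3 and 8.21 FPKM in cKO, against 22.8, 20.1 and 24.9 FPKM in WT TFH cells (-1.26 ± 0.17). In non-TFH cells Epsti1 read 177, 167 and 162 FPKM in cKO, against 57.8, 59.7 and 50.2 FPKM in WT (1.58 ± 0.10, adjusted p = 4.6e-07 by limma). The GTPases Tgtp1 and Tgtp2, in a joint feature with neighbours, were lower in cKO cells of both kinds, by -0.62 ± 0.10 in TFH and -0.65 ± 0.10 in non-TFH cells.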

How the data were processed

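The authors deposited Cufflinks gene tables with an FPKM value per gene and library. Per the submitters' processing notes, FastQC, cutadapt, TopHat2, Bowtie2, Cufflinks and Cuffdiff were used with the mouse build mm10, with no version or setting given in the sources used here. Per the labels' protocols, RNA was extracted with Trizol and Ribospin II and libraries were made with TruSeq Stranded mRNA. A table row may list several overlapping genes. Genes with a row of their own in at least 2 libraries of each group were kept as such (22451), and the others were summed into 796 joint features. Values were scaled by median ratios over 7167 features, and log2(FPKM + 1) of the 11113 features that reached 1 FPKM in 3 or more libraries was fitted with limma 3.58.1 in R 4.3.3 (4 group means over 12 libraries, trend and robust, Benjamini-Hochberg over all tested features, threshold 0.05). The pseudocount of 1 understates changes of low genes. An exact permutation test of 3 against 3 cannot go below p = 0.1. No count table was used, so depth was estimated from the tables and no counting interval is given. The fit was tested on simulated data. Alternatives changed the pseudocount, filter, scaling, weights, replicate block, the libraries in the fit and the treatment of joint rows, and left out each library in turn. Python 3.11.15 with pandas 2.3.3, numpy 2.4.6 and matplotlib 3.10.9 was used for summaries, motifs and figures. The members and lists were chosen with earlier results of these data known. Every member was accounted for. Members called in a comparison of genotypes or in the interaction, and the 3 with the highest mean, were given by library in TFH cells, in non-TFH cells or in both. Of other lists, at most the 5 genes with the smallest adjusted p in each comparison of genotypes were named, with Ifng and the interferon receptor and kinase genes named always. A gene of the pathway is not reported here.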

Additional observations from a re-analysis of the deposited data

Results flagged for a closer look

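For 12 features the change of cKO against WT was not the same in the 2 cell types by the interaction in limma, the change in TFH cells minus that in non-TFH cells on the log2 scale. Among the sensors, the interaction was -1.1 for Ifih1 and -0.69 for Zbp1. Ifih1 differed by genotype in TFH cells, and Zbp1 differed in non-TFH cells. Among the transcription factors it was -1.06 for Stat2 and -0.55 for Irf1. The joint feature of Ifit2 and Ifit3 had an interaction of -0.94. Rsad2 and Mx1 had -1.84 and -1.16, and the ubiquitin ligase Dtx3l had -0.61. The GTPases had -0.98 for Gbp3, -0.77 for Irgm1, -0.65 for Gbp2 and -0.62 for Ifi47. Of these, Irf1 and Mx1 lost the call in 14 of 21 other settings, Ifi47 in 12, the feature of Ifit2 and Ifit3 in 11, Dtx3l in 9, Gbp2 in 8, Rsad2 in 7 and Zbp1 in 1.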

How the results depend on the processing

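Between genotypes, the calls of Ifih1, Oasl2, Oas2, Ly6e, Gbp3 and Irgm1 in TFH cells and of Zbp1, Oasl2, Oas2, Mx1, Rsad2, Ly6e and Parp9 in non-TFH cells were kept under all 21 other settings. With array weights, 5 members were called lower in cKO TFH cells and 5 had a lower interaction. Without scaling, TFH cells of WT mice had 7 members higher and 11 lower against non-TFH cells, and 4 were higher in cKO mice, where quantile normalization, a fit of only the groups compared and the replicate block each gave 2. The interaction was called lower for 7 members without a filter and for 6 with a replicate block within genotype. With each library left out in turn, the counts in cKO against WT TFH cells ranged from 2 to 5 higher and from 9 to 13 lower, and in non-TFH cells from 6 to 16 higher and from 2 to 3 lower. Those of TFH against non-TFH cells ranged from 1 to 2 higher and 28 to 31 lower in cKO mice and from 3 to 4 higher and 17 to 20 lower in WT mice, and the interaction from 0 to 1 higher and 5 to 13 lower. When every row that lists a symbol was summed, a joint feature was replaced by the rows of its first listed member. The change of Trim30a in TFH cells was then 0.176 and the interaction of Ifit2 was 1.169. Both had the opposite sign to the joint feature and neither was called. That setting uses other rows of the tables by its construction. The cause of the other shifts was not tested. Libraries with the same replicate number showed little shared deviation (r from -0.036 to 0.072 over all features). Over the members r ran from -0.315 to 0.42 for the same number and from -0.437 to 0.456 for different numbers. Deviations from means of 3 libraries cannot by themselves exclude that the numbers pair them. In libraries 2 and 3, Xist read 16.6 and 14.8 FPKM in cKO TFH and 0.324 and 0.0826 FPKM in cKO non-TFH cells. Ddx3y read 0 in both of these cKO TFH libraries, and 44.5 and 40.3 FPKM in cKO non-TFH cells. The cKO TFH and non-TFH libraries of these numbers thus did not come from the same mice. A replicate block gave 4 higher and 11 lower members in TFH cells and 11 higher and 2 lower in non-TFH cells. No block within genotype can be fitted for cKO against WT, and the interaction has no fit of only 2 groups. With 3 libraries a group and no counts, small changes of low members could not be separated from the spread.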
